A study of Mus musculus with 12 samples.

Results

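The Serpina clade of the liver comprises 10 genes of mouse chromosome 12 that encode secreted serpins: Serpina1a, Serpina1b, Serpina1c, Serpina1d, Serpina1e, Serpina3k, Serpina3m, Serpina3n, Serpina6 and Serpina10. They were found by their symbols among the 32285 genes counted in these libraries, of which 24 carry a Serpina symbol. The set was chosen by the contrast between anemic and control liver, because Serpina3k was higher and Serpina6 was lower in anemia. Values of these 10 genes in that contrast are therefore given as a description with no test.

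Dissociated livers of 12 neonatal C57BL/6 mice (C57BL6/J in the series record) were analysed cell by cell in a droplet assay, each mouse in a library of its own. In the 6 mice with phlebotomy-induced anemia (PIA), 20 µL of blood per gram of body weight was drawn from the facial vein every other day from postnatal day 2 to day 10. The 6 controls received a daily needle stick that drew no blood, and all 12 livers were taken on postnatal day 11. Pups of each litter were assigned to the groups at random, no genotype differed between them by the labels, and the litter of each mouse was not used here. Y-linked genes were high in controls 1 and 2 and in PIA 1, 3, 5 and 6 alone, so the sexes were unevenly split between the groups.

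Every library counted unique molecular identifiers (UMIs), so that a captured mRNA molecule counts once. The libraries held 46252146 to 74545930 UMIs, and 206146 cells passed the filters, of which 15160 were hepatocyte-like by 8 marker genes (Alb, Apoa1, Apoa2, Apoc3, Apoh, Ahsg, Ttr and Fgb). Those 8 genes made up 12.7% ± 0.342 (SD, n = 6) of the UMIs of the hepatocyte-like cells in controls and 10.9% ± 1.49 (n = 6) in PIA. A control mouse gave 947 to 1339 such cells and a PIA mouse 584 to 1907. PIA mice 2 and 3 stood apart, with 26.3% and 10.2% monocyte-like cells against at most 2.74% in the other 10 mice, and with 3.27% and 3.09% hepatocyte-like cells against at least 5.22%. Results that rest on them are given with and without them. Of 201108 distinct cell barcodes, 4951 occurred in more than 1 library.

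Serpins are protease inhibitors that offer a flexible loop as bait. The protease cuts the loop, the serpin snaps into a new shape, and the pair stays locked together. Hepatocytes secrete most members of the A clade into blood. Serpina1 genes encode alpha-1-antitrypsin, the main brake on neutrophil elastase, which humans encode in a sole gene and mice in several copies. Serpina3 genes are the mouse relatives of human alpha-1-antichymotrypsin and were likewise multiplied in rodents. Serpina6 encodes corticosteroid-binding globulin, the blood carrier of glucocorticoids, which binds hormone and inhibits no known protease. Serpina10 encodes the inhibitor that works with protein Z to shut off coagulation factor Xa.

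The copies differ most where they meet their proteases, so the coding sequence of the reactive loop is shown, from the hinge codons to the conserved codons behind the loop. The sequences are those of the GENCODE vM21 coding transcripts on GRCm38, each inside 1 exon. In the Serpina1 genes, which lie on the minus strand, capitals mark bases that differ from Serpina1a. The loops lie at chr12:103853750-103853830 (Serpina1a), chr12:103728317-103728397 (Serpina1b), chr12:103895087-103895167 (Serpina1c), chr12:103763755-103763835 (Serpina1d) and chr12:103947093-103947173 (Serpina1e).
Serpina1a: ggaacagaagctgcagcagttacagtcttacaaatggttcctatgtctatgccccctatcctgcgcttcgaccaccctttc
Serpina1b: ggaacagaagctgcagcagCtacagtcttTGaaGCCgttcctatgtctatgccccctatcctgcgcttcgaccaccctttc
Serpina1c: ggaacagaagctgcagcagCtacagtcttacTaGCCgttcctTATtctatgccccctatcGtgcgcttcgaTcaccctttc
Serpina1d: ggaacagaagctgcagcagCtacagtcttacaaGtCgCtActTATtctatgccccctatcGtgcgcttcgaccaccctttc
Serpina1e: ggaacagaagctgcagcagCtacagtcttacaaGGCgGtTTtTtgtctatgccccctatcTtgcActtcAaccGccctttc

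Over 81 bases, the loop differed from that of Serpina1a at 6 bases in Serpina1b, 10 in Serpina1c, 9 in Serpina1d and 12 in Serpina1e, most of them in the middle of the stretch. The whole coding sequences of these 5 genes were 96.3% to 98.5% identical over 10 pairs. In the Serpina3 genes, which lie on the plus strand, capitals mark bases that differ from Serpina3k or have no counterpart in its shorter loop. The loops lie at chr12:104345269-104345352 (Serpina3k), chr12:104393769-104393858 (Serpina3m) and chr12:104413448-104413537 (Serpina3n).
Serpina3k: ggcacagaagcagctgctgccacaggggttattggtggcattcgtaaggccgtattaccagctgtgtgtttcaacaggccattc
Serpina3m: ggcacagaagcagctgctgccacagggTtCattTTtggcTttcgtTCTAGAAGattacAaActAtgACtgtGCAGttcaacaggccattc
Serpina3n: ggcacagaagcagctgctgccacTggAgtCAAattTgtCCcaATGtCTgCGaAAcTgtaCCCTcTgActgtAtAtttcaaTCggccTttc

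Here the bases in capitals numbered 22 in Serpina3m and 29 in Serpina3n, bases without a counterpart included. The loop of Serpina3k, at 84 bases, was shorter than the 90 bases of Serpina3m and Serpina3n. The 3 coding sequences were 83.4% to 91.9% identical, and the 32 remaining pairs among the 10 members 54.9% to 62.0%. Of all 90-base windows in the last 600 bases of their transcripts, 35.0% of Serpina1a, 21.5% of Serpina1c, 6.07% of Serpina1d and 1.97% of Serpina1b occurred in another gene, and none of the other 6 members. Reads from such windows cannot be assigned to 1 copy, so the split among the Serpina1 copies is uncertain to that extent. The gene model of Serpina3m, at chr12:104338486-104394257, encloses that of Serpina3k and shares 60 exon bases with it. The model of Serpina1b encloses that of Serpina1d without sharing an exon base.

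In hepatocyte-like cells the 10 genes took 2.81% ± 0.0977 (n = 6) of all UMIs in controls and 3.72% ± 0.445 (n = 6) in PIA. Nearly all of that was alpha-1-antitrypsin mRNA: Serpina1a to Serpina1e made up 95.8% ± 0.149 of the UMIs of the clade in controls and 95.1% ± 1.98 in PIA. Levels below are counts per 1e+06 UMIs (CPM) after edgeR's TMM scaling, in sums over the hepatocyte-like cells of a mouse, and fold changes are PIA over control from edgeR's quasi-likelihood fit with their standard error (SE). Since UMIs were counted at the 3′ end, no level was divided by length. Where different genes are set side by side below, the quantity is counted UMIs or a share of them, not a level per length.

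Serpina3k, a kallikrein-binding serpin also called contrapsin, showed the largest difference of the set. Its lowest, median and highest levels were 29.6, 63.4 and 82.2 CPM in controls and 213, 883 and 1883 CPM in PIA. Every PIA mouse was above every control, yet the PIA mice spread widely, with PIA 4 (213 CPM) and PIA 6 (418 CPM) nearest to the controls and PIA 3 the highest. The means were 61.1 ± 20.4 (SD, n = 6) and 945.6 ± 617 (n = 6) CPM, a log2 fold change of 3.95 (SE 0.424), or 15.5-fold between means. Serpina6, the glucocorticoid carrier, went the other way. It had 131, 253 and 316 CPM as lowest, median and highest control level and 19.4, 60.0 and 86.3 CPM in PIA, with no overlap. Its means were 243 ± 63.5 and 59.6 ± 25.8 CPM (n = 6 each) and its log2 fold change was -1.98 (SE 0.253). Control 6 was the lowest control, and PIA 2 the lowest of all.

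**Figure D1:**
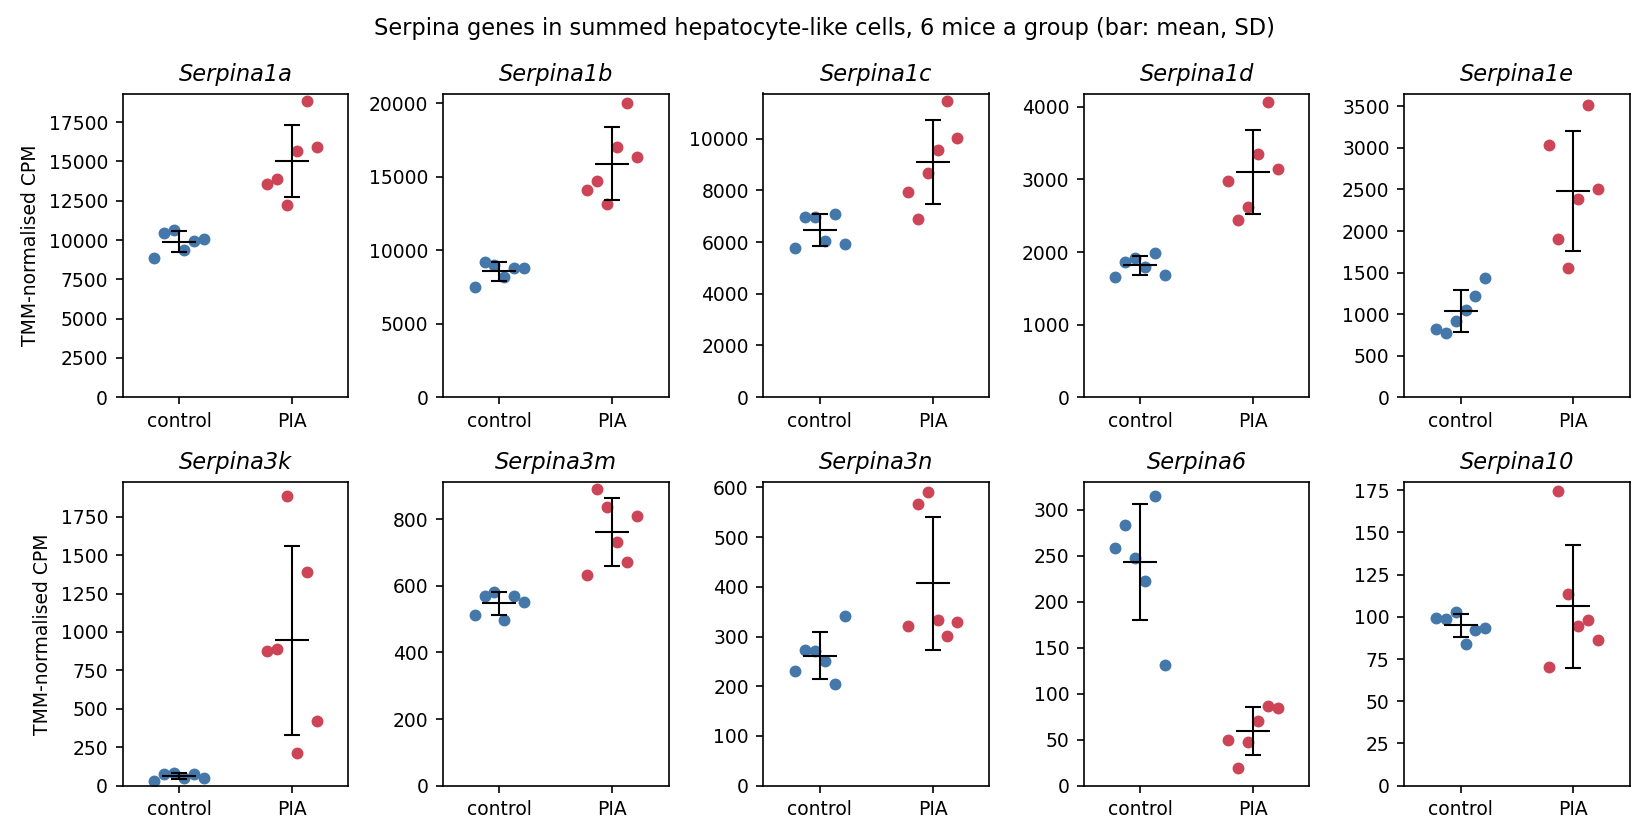
TMM-normalised CPM (y axes, from 0, each gene on its own scale) of the 10 Serpina genes in summed hepatocyte-like cells; each point is 1 mouse, 6 controls and 6 with PIA, and the bars give mean and SD. Serpina3k spans 213 to 1883 CPM in PIA against at most 82.2 CPM in controls, and Serpina6 reaches at most 86.3 CPM in PIA against at least 131 CPM in controls.

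All 5 alpha-1-antitrypsin genes had higher means in PIA on this scale. Serpina1a, at 8868.5, 10004 and 10634 CPM in controls (lowest, median, highest), had 12253, 14785 and 18830 CPM in PIA, a log2 fold change of 0.60 (SE 0.102). Serpina1b, second to it in UMIs, had 7474, 8794 and 9204 CPM in controls and 13132, 15512 and 20022 CPM in PIA (0.89, SE 0.104). In neither gene did the groups overlap. Serpina1d, with means of 1817 ± 131 and 3100.3 ± 577 CPM (n = 6 each; 0.77, SE 0.112), showed no overlap either. Serpina1e had the largest fold change of the 5, 1.26 (SE 0.186): its levels ran from 771 to 1431 CPM in controls and from 1556 to 3518 CPM in PIA. Serpina1c had the smallest, 0.49 (SE 0.114), and PIA 2 (6897 CPM) fell within the control range of 5766 to 7084 CPM.

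Of the remaining 3 genes, Serpina3m, the nearest relative of Serpina3k, ran from 498 to 583 CPM in controls and from 632 to 892 CPM in PIA, with a log2 fold change of 0.48 (SE 0.0960). Its ranges did not overlap, but the distance was small beside that of Serpina3k. Serpina3n, an inhibitor of leukocyte proteases such as granzyme B, had 262 ± 46.5 CPM in controls and 407 ± 134 CPM in PIA (n = 6 each; 0.63, SE 0.176). Of the PIA mice, PIA 2 (566 CPM) and PIA 3 (592 CPM) alone lay above the highest control (341 CPM), and without them the log2 fold change was 0.28. Serpina10 had 94.9 ± 6.76 CPM in controls and 106 ± 36.4 CPM in PIA (0.13, SE 0.159), with PIA 2 at 175 CPM and the other PIA mice between 70.1 and 114 CPM. Without PIA 2 and 3 its value was -0.13, so no direction is given for it.

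Gene-wide differences between the groups were common in these sums, and the counts of members are read against them. Of 11956 genes tested in hepatocyte-like cells, 6406 (53.6%) passed an adjusted p of 0.05 in edgeR's test with Benjamini-Hochberg adjustment, 27.2% higher and 26.3% lower in PIA, while 9 of the 10 members passed, 8 higher and 1 lower. The ranges of the 6 control and 6 PIA mice did not overlap for 29.7% of genes, 16.9% higher and 12.7% lower, and for 7 members, 6 higher and 1 lower. The set was picked on this contrast, and nothing is read from these counts.

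The scale matters for the smaller differences. Without TMM factors the median log2 fold change of all genes was -0.41, against -0.02 with them, and the calls split into 1542 higher and 5572 lower, against 3258 and 3148. On that scale Serpina3k was at 3.60 and Serpina6 at -2.37, Serpina1e at 0.88 and Serpina1b at 0.50, while Serpina1a (0.22), Serpina1c (0.11), Serpina3m (0.09) and Serpina3n (0.25) came near 0 and Serpina10 turned to -0.26. Set against the summed UMIs of the 8 hepatocyte marker genes of the same mouse, the differences in log2 ratio were 3.62 for Serpina3k, -2.22 for Serpina6, 0.39 to 1.16 for the Serpina1 genes, 0.38 for Serpina3m, 0.51 for Serpina3n and 0.02 for Serpina10.

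Markers of other cells moved with the groups within these sums. Erythroid markers summed to 1132 to 6199 CPM in controls and 7329 to 18040 CPM in PIA, with 1 of 8 at 0 in all 12 mice. Endothelial markers were at 449 to 715 CPM in controls and 64.1 to 310 CPM in PIA, and stellate markers at 446 to 720.5 and 28.4 to 177 CPM, with none of either list at 0. Neutrophil markers were at 90.3 to 537 CPM in controls and 166 to 622 CPM in PIA. Monocyte markers, Fn1 among them, were at 1081 to 1308 CPM in controls and 597 to 873 CPM in PIA. In monocyte-like cells they stood at 8423 CPM, and whether hepatocyte-like cells express some of them was not tested. The part of other cells' RNA in the Serpina values was not tested either. The shares of the hepatocyte-like clusters moved as well, and the groups were also compared within each cluster. Each of those fits has TMM factors of its own, so its scale differs from that of the whole sums. The part of the cluster shares in the fold changes of the whole sums was not tested.

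Hepatocyte-like cells fell into 4 clusters at the resolution used, formed with the 10 members left out of the variable genes. Clusters 15 and 25 led with transport and plasma protein genes (Rbp4, Apcs, Apom, Ttr) and had Serpina1 genes among their 10 leading genes, cluster 18 led with Apob, Cps1 and Itih2, and cluster 24 with the amino acid and urate enzymes Uox, Gnmt and Ass1. Between controls and PIA, the share of cluster 18 among hepatocyte-like cells went from 35.2% ± 3.77 to 16.3% ± 3.39 and that of cluster 24 from 13.9% ± 4.30 to 28.1% ± 6.28 (n = 6 each). Clusters 15 and 25 held 30.0% ± 6.33 and 21.0% ± 1.14 of them in controls and 35.4% ± 4.14 and 20.3% ± 4.16 in PIA. Serpina1a had 18830 ± 1310 and 18790 ± 761 CPM (unscaled) in clusters 15 and 25 of the controls but 4796 ± 452 and 7593 ± 1178 CPM in clusters 18 and 24. Cells of cluster 15 were shallow, with median UMIs of 719 to 906, against 1962 to 5013 in cluster 18.

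Within clusters, Serpina3k and Serpina6 kept their differences and the alpha-1-antitrypsin genes did not all do so. The log2 fold change of Serpina3k was 3.32, 4.27, 3.14 and 3.97 in clusters 15, 18, 24 and 25, and that of Serpina6 -2.22, -1.67, -2.27 and -2.01, with no overlap between the groups in any of the 4 for either gene. In cluster 25, for example, Serpina3k went from 67.9 ± 26.5 to 1033 ± 687 CPM and Serpina6 from 291 ± 85.0 to 63.4 ± 30.5 CPM. Cluster 24 had the lowest levels of both genes, 31.3 ± 17.7 CPM of Serpina3k and 74.8 ± 21.0 CPM of Serpina6 in controls. Serpina1a, by contrast, was at -0.09, 0.03, 0.48 and -0.07, and Serpina1c at -0.29, 0.18, 0.41 and -0.16. Serpina1b (0.15 to 0.73), Serpina1d (0.19 to 0.87) and Serpina1e (0.54 to 1.23) had fold changes above 0 in all 4. So did Serpina3n (0.68 to 0.83) and Serpina3m (0.11 to 0.29). In unscaled CPM, however, the groups overlapped in all 4 clusters for Serpina1b, Serpina1d, Serpina1e and Serpina3m, and in every cluster but 25 for Serpina3n. Serpina1c in cluster 15 was lower in PIA without overlap, at 11850 ± 417 CPM in controls and 8809 ± 1115 CPM in PIA (n = 6 each).

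**Figure D2:**
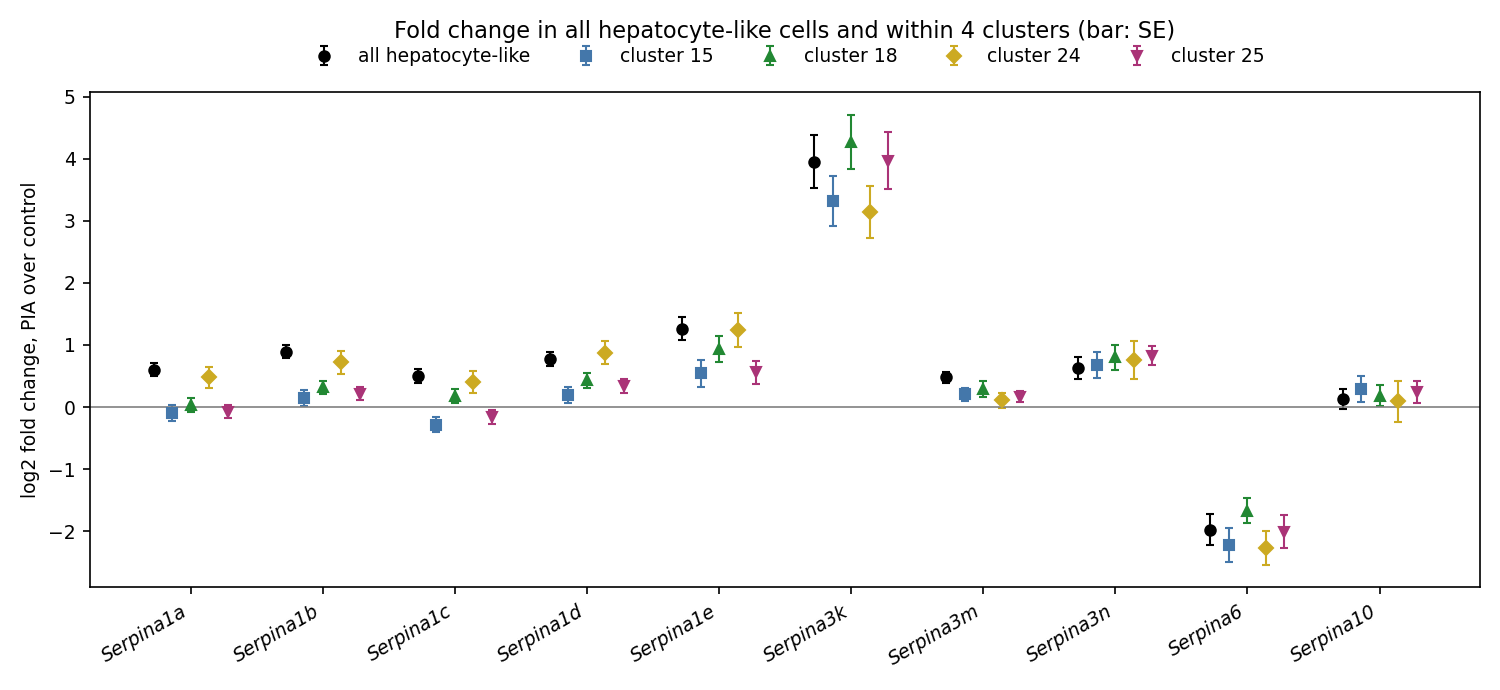
Log2 fold change of PIA over control (y axis) for each Serpina gene in all hepatocyte-like cells and within clusters 15, 18, 24 and 25; symbols are edgeR estimates over 6 mice a group and bars their SE. Serpina3k (3.14 to 4.27) and Serpina6 (-2.27 to -1.67) keep their sign in every cluster, while Serpina1a and Serpina1c lie on either side of 0.

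The make-up of each paralog group does not depend on any scaling, since it is a share of UMIs within a mouse. Among the Serpina1 copies, Serpina1b held 30.3% to 31.6% of the UMIs in controls and 33.8% to 36.9% in PIA. Serpina1a went from 35.6% ± 0.701 to 33.0% ± 0.999 (n = 6 each), below Serpina1b in counted UMIs in each of the 6 PIA mice. The groups overlapped for Serpina1a, with PIA 2 at 34.9% and control 5 at 34.3%. Serpina1c went from 23.3% ± 1.12 to 20.0% ± 1.79 and Serpina1e from 3.73% ± 0.890 to 5.40% ± 1.13, both with overlap between the groups. The share of Serpina1b was higher without overlap in clusters 15, 24 and 25 too, and overlapped in cluster 18. Among the Serpina3 genes the order changed in some PIA mice. Serpina3m led in all 6 controls with 58.3% to 67.1% and Serpina3k held 3.83% to 8.78%, whereas in PIA Serpina3k held 16.7% to 58.9%. In PIA 1, PIA 3 and PIA 5 Serpina3k was the most counted of the 3 genes, at 47.9%, 56.8% and 58.9%, and in PIA 2 it had 37.9% beside 38.0% of Serpina3m. Serpina3m still led in PIA 4 (57.2%, with 16.7% of Serpina3k) and PIA 6 (52.0%, with 26.8%).

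**Figure D3:**
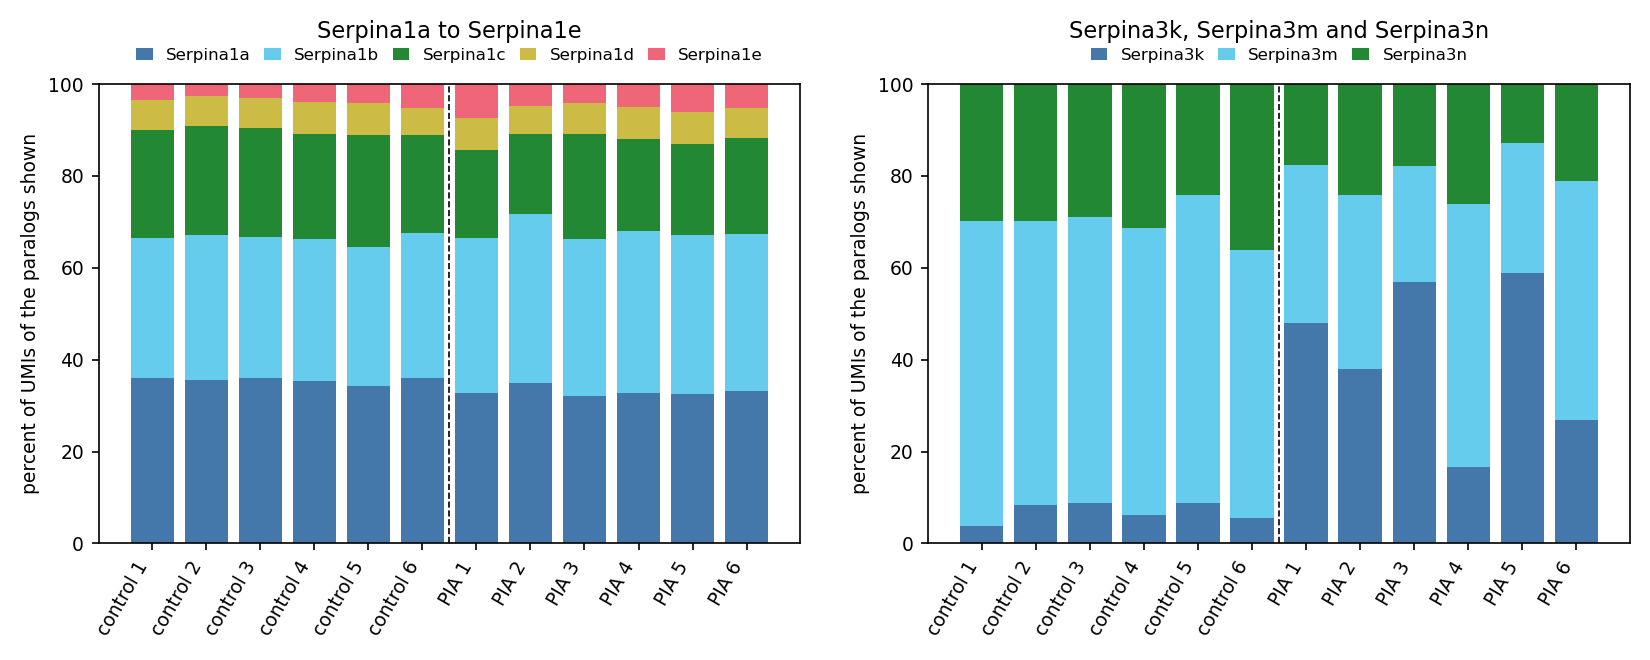
Percent of the UMIs of a paralog group (y axis, stacked to 100) held by each gene in the hepatocyte-like cells of each mouse (x axis, 6 controls left of the dashed line and 6 PIA mice right of it), for Serpina1a to Serpina1e and for Serpina3k, Serpina3m and Serpina3n. Serpina3k takes 3.83% to 8.78% of its group in controls and 16.7% to 58.9% in PIA, while the Serpina1 shares move by a few points.

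The differences were also seen as shares of cells. A Serpina3k UMI was found in 7.32% ± 2.00 of hepatocyte-like cells in controls and 38.6% ± 18.7 in PIA (n = 6 each), and after thinning each cell to 500 UMIs in 2.63% ± 0.631 and 22.2% ± 12.9. B-like cells, which should lack the gene, showed it in 0.395% ± 0.116 and 2.62% ± 1.96 of cells (0.114% and 0.818% after thinning). Serpina6 was found in 30.7% ± 5.36 and 7.22% ± 2.49 of hepatocyte-like cells (10.2% and 2.01% after thinning), against 1.68% ± 0.366 and 0.185% ± 0.170 of B-like cells. Median UMIs per cell were alike in both classes, 1264 to 1790 over the 12 mice in hepatocyte-like cells and 1213 to 1687 in B-like cells. Serpina1a, for comparison, was found in 97.9% ± 0.843 and 98.2% ± 0.685 of hepatocyte-like cells, but also in 48.3% ± 3.76 and 27.8% ± 14.4 of B-like cells. A UMI of this gene in a cell of another class is thus no sign that the cell expresses it.

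In the classes that are not hepatocyte-like the clade was counted at low level, and each gene had to be read against hepatocyte RNA outside its cell of origin. The 8 hepatocyte marker genes stood at 1.17% to 4.27% of their hepatocyte-like level in the 13 other classes. Serpina1a lay between 1.21% (pre-B-like) and 4.89% (B-like), and Serpina6 between 1.10% (basophil- or mast-like) and 4.27% (B-like). Clusters 41 (B-like, 861 cells, with Serpina1a, Ahsg and Serpina1b among its 10 leading genes), 42 (erythroid-like, 838 cells), 44 (endothelial-like, 760 cells) and 50 (macrophage-like, 488 cells) had hepatocyte as their second marker class. Without cluster 41, B-like cells stood at 2.74% of the hepatocyte-like level for Serpina1a, 2.84% for Serpina6 and 2.68% for the 8 marker genes. In all B-like cells Serpina3k was at 2.63 CPM in controls and 17.9 CPM in PIA, and Serpina6 at 11.0 and 1.05 CPM, while the 8 marker genes were at 6590.0 and 3508 CPM. Erythroid-like cells had 2.98 and 10.5 CPM of Serpina3k, endothelial-like cells 1.17 and 6.32 CPM, and macrophage-like cells 0.908 and 5.43 CPM.

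Both genes were read in each class by the same fit. The log2 fold change of Serpina3k ran from 1.90 (T-like) to 4.16 (dendritic-like) in the 11 other classes where it was tested, and that of Serpina6 from -4.48 (T-like) to -2.15 (dendritic-like) in 10. Without PIA 2 and 3 the ranges were 2.19 to 4.47 and -3.63 to -1.61. The largest differences rest on few UMIs and a level near 0 in 1 group. Serpina3k had 105 UMIs in dendritic-like cells, at 0.34 CPM (unscaled) in controls. Serpina6 had 76 UMIs in T-like cells, at 0.37 CPM in PIA. The log2 fold change of Serpina1a was below 0 in all 13, from -1.67 (basophil- or mast-like) to -0.14 (cholangiocyte-like). Its SE was 0.215 to 0.438 in these fits, and without PIA 2 and 3 it ran from -1.11 to -0.003 in the same 2 classes. The 8 hepatocyte marker genes were lower in PIA in the same 13 classes. Their log2 ratio of mean CPM (unscaled) ran from -1.47 (basophil- or mast-like) to -0.09 (cholangiocyte-like). The part of that shift in the values of Serpina1a, Serpina3k and Serpina6 was not tested. These classes share their libraries with the hepatocyte-like cells, so they are no separate observations of the 12 mice.

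**Figure D4:**
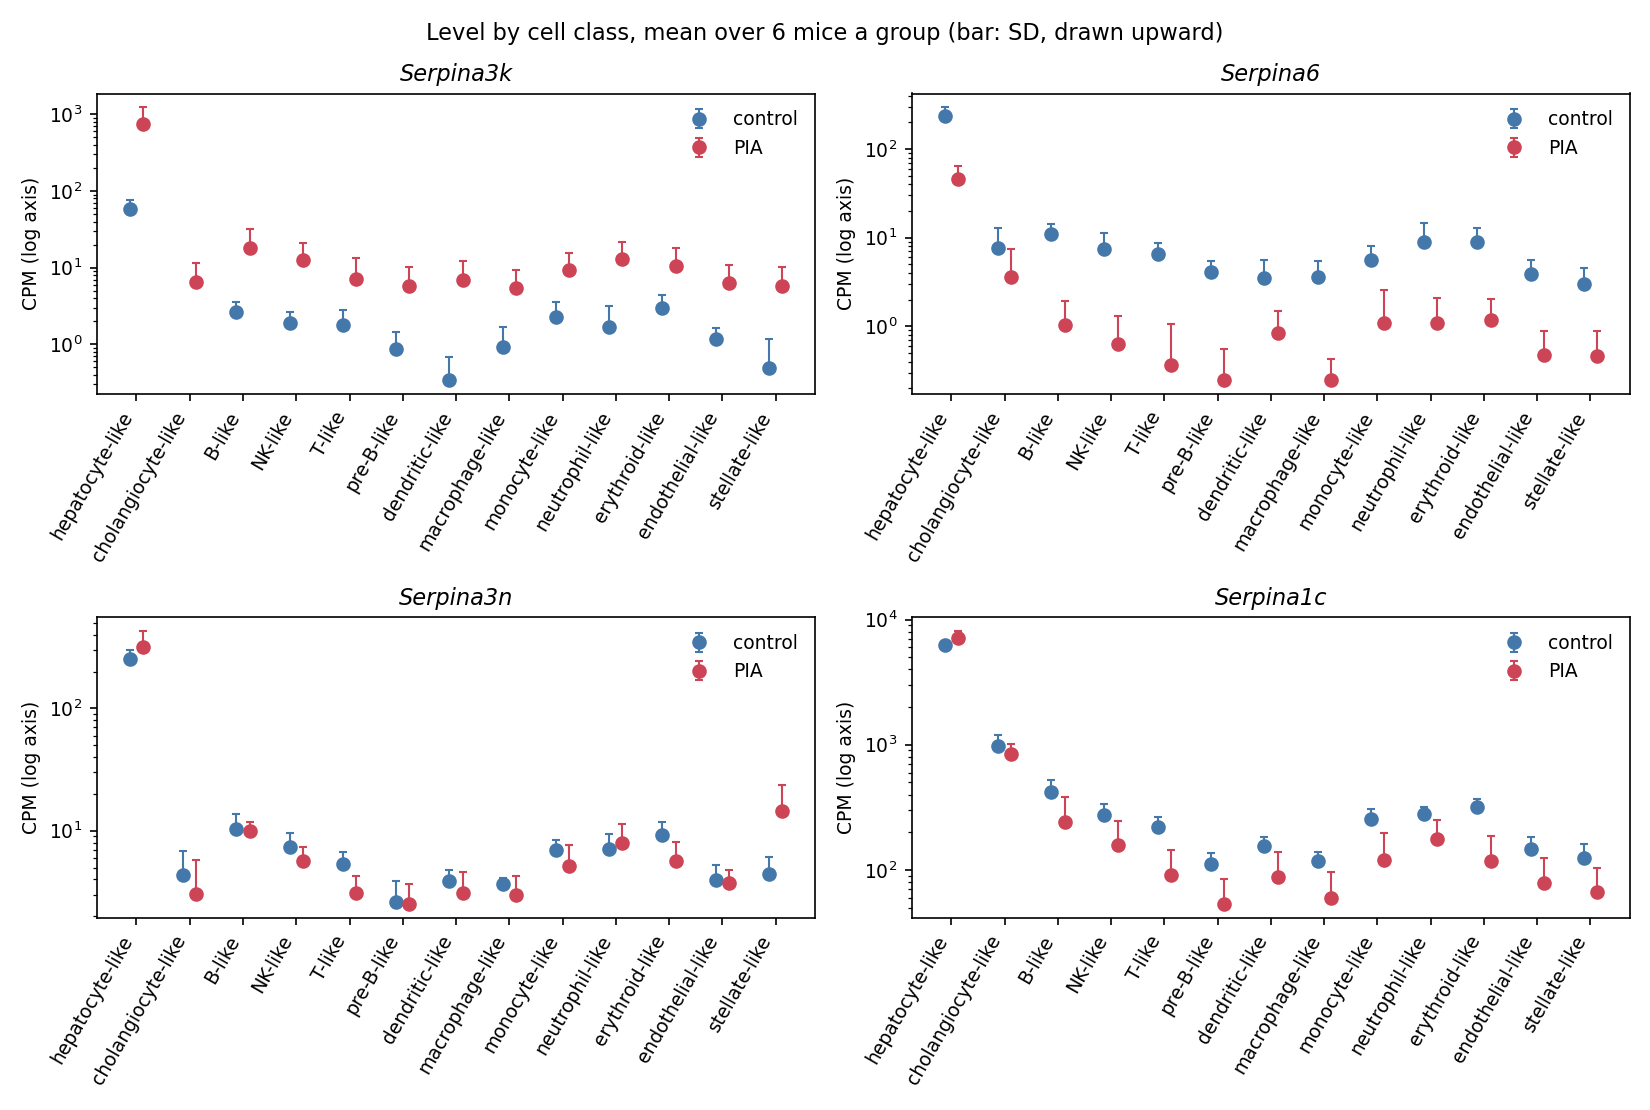
CPM on a log axis (y) of Serpina3k, Serpina6, Serpina3n and Serpina1c in hepatocyte-like cells and 12 other classes (x); points are means over 6 mice a group, bars the SD drawn upward, and a class with no UMI in a group has no point. Serpina3k and Serpina6 differ between the groups in the same direction in every class drawn for both groups, Serpina1c stands out in cholangiocyte-like cells, and Serpina3n in the stellate-like cells of PIA.

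A class whose Serpina UMIs all came from the hepatocyte-like cells of its library, in proportion, would have the ratio of a member to the 8 hepatocyte marker genes that those cells have. That reference is an average, since the hepatocyte-like clusters themselves differed in Serpina1 level. For each mouse, the log2 ratio of a member to the 8 genes in a class was compared with the same ratio in its hepatocyte-like cells, over all 12 mice together, in a two-sided exact paired permutation test with Benjamini-Hochberg adjustment over 125 pairs of member and class. This comparison does not use the contrast on which the genes were picked. Outside cholangiocyte-like cells, 113 of 116 pairs differed by less than 0.5 on the log2 scale in the mean over 12 mice. The other 3 were Serpina3k in dendritic-like (-0.68) and stellate-like cells (-0.85) and Serpina3n in stellate-like cells (1.08). For Serpina3k the control means were -1.285 and -1.508 and the PIA means -0.066 and -0.197, with 0.34 and 0.49 CPM in controls. In 13 of the 113 pairs, with 23 to 265 UMIs, the mean of the controls or of the PIA mice was 0.5 or more from 0, and in 8 of the 13 the group means had opposite signs, such as Serpina6 in dendritic-like cells (-0.45 in controls and 1.01 in PIA). In 8 of these 116 pairs, all of Serpina1 genes in B-, NK-, dendritic- and monocyte-like cells, the adjusted p was under 0.05 with mean differences of at most 0.25. Without clusters 41, 42, 44 and 50 there were 4 such pairs and none in B-like cells. One of the 4 was Serpina6 in macrophage-like cells, at -0.72 (exact permutation test, adjusted p = 0.0254).

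Cholangiocytes line the bile ducts. In the 699 cholangiocyte-like cells (31 to 86 per mouse, with Spp1, Clu, Krt8 and Epcam among their leading genes), the clade had a make-up unlike that of hepatocytes. Serpina1c stood above hepatocyte RNA in 12 of 12 mice, by 1.84 (SD 0.350, exact permutation test, adjusted p = 0.00872), with single values from 1.17 to 2.37. It was counted there with 5267 UMIs, against 1399 of Serpina1a, which lay 0.81 below hepatocyte RNA. Serpina10 stood 2.51 above it (SD 0.787, 12 of 12 mice, exact permutation test, adjusted p = 0.00872) on 123 UMIs, and reached 23.0% of its hepatocyte-like level in CPM, where Serpina1c reached 13.7% and the 8 marker genes 3.85%.

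Serpina1e followed at 1.09 (SD 0.724, 10 of 12 mice, exact permutation test, adjusted p = 0.0204), with a mean of 1.66 over controls and 0.53 over PIA. This call was lost without control 2 (0.9994, under the required 1), with at most 10% mitochondrial UMIs (0.85), with Alb alone as the reference (0.91, exact permutation test, adjusted p = 0.0888) and without PIA 2 and 3 (1.08, exact permutation test, adjusted p = 0.0538). Serpina3m lay 2.18 below hepatocyte RNA (SD 1.12, 0 of 12 mice above, exact permutation test, adjusted p = 0.00872) and Serpina3n 1.35 below it (SD 1.03, 1 of 12, exact permutation test, adjusted p = 0.0204), on 27 and 21 UMIs. Serpina1b (-0.65) and Serpina1d (-0.69) lay below it too, short of the required 1. The log2 ratio of PIA to control CPM of the 8 marker genes was -0.09 here. In the other classes that are not hepatocyte-like it was -1.47 to -0.78. Whether this class has a source of the 8 genes of its own was not tested, so a ratio below 0 shows no low level of a member. The value of Serpina3n rests on so few UMIs that leaving out any of 8 mice put it under the 20 UMIs required. The unadjusted p of Serpina1c, Serpina3m and Serpina10 was 0.000488, the smallest that the exact test can give with 12 mice.

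Doublet calling was uneven in the cholangiocyte-like class. Leaving out called doublets kept 139 of its 699 cells, at most 1 in each of 9 mice and 40 to 53 in the other 3, too few mice for the test (smallest exact p 0.25). Whether the called cells were doublets could therefore not be told. In those 3 mice Serpina1c was at 1.95, Serpina1e at 1.03 and Serpina10 at 2.77 above hepatocyte RNA. A cholangiocyte-like cell had a median of 5445 UMIs. A Serpina1c UMI was found in 76.2% ± 8.40 of them in controls and 65.8% ± 11.8 in PIA, and after thinning to 500 UMIs in 32.7% ± 6.23 and 28.2% ± 4.51, against 16.4% ± 3.36 and 7.99% ± 4.22 of B-like cells.

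**Figure D5:**
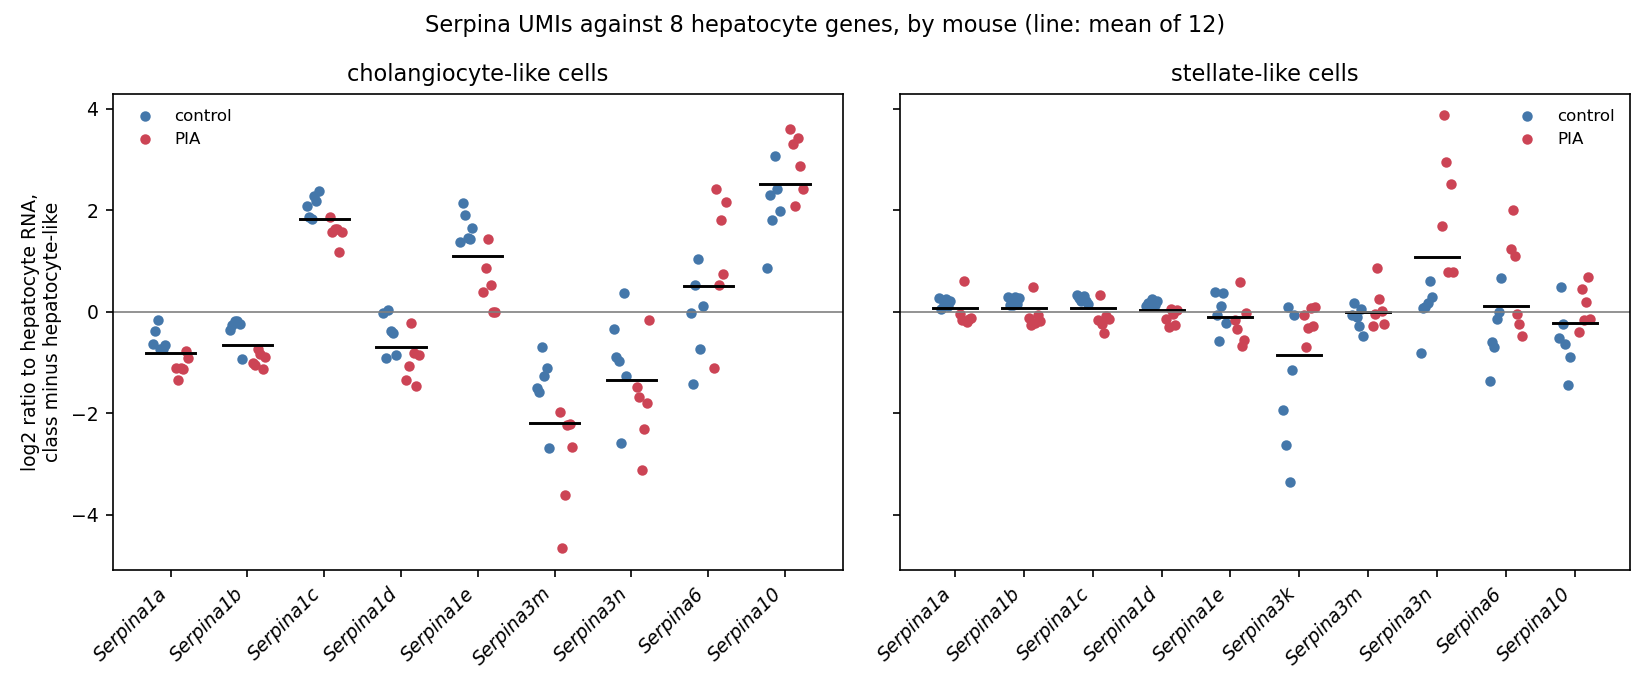
Log2 ratio of each Serpina gene to 8 hepatocyte marker genes in cholangiocyte-like and stellate-like cells minus the same ratio in hepatocyte-like cells (y axis), 1 point per mouse, 6 controls and 6 PIA mice, with a line at the mean of 12. In cholangiocyte-like cells Serpina1c and Serpina10 lie above 0 in 12 of 12 mice, and in stellate-like cells Serpina3n is between -0.81 and 0.61 in controls and between 0.78 and 3.87 in PIA.

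Stellate-like cells showed a different member. Serpina3n stood above hepatocyte RNA in 11 of 12 mice, by 1.08 on average (SD 1.39, 412 UMIs), but did not pass the test (exact permutation test, adjusted p = 0.0698). Of the 6985 stellate-like cells, 3215 were not called doublets (14 to 527 per mouse), and in these the mean was 1.62, above 0 in 12 of 12 mice (130 UMIs, exact permutation test, adjusted p = 0.0586). Over all stellate-like cells the mean was 0.07 over controls and 2.10 over PIA. PIA 2 (3.87), PIA 3 (2.94) and PIA 5 (2.52) were the highest, and without PIA 2 and 3, which had 228 and 175 of these cells, the mean over the others was 0.62. In CPM, Serpina3n went from 4.42 in controls to 14.4 in PIA, and a UMI of it was found in 3.13% ± 0.821 and 6.78% ± 3.06 of stellate-like cells. B-like cells had 10.4 and 9.87 CPM and a UMI in 1.58% ± 0.350 and 1.61% ± 0.355 of cells, but their median depth was 1213 to 1687 UMIs against 4568 to 6280 in stellate-like cells. After thinning to 500 UMIs the shares were 0.318% and 0.822% in stellate-like and 0.492% and 0.464% in B-like cells, so in controls the stellate-like share and level lay below those of B-like cells.

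Other genes around the clade were described from 6 fixed lists in hepatocyte-like cells. The counts below in the main fit stand beside 27.2% of all tested genes called higher and 26.3% called lower, and a list near these shares is no result about the list. Other settings have other backgrounds. Without TMM factors 1542 genes were called higher and 5572 lower, and without called doublets 2640 and 2770. Of 14 further Serpina genes found by symbol, 5 were tested and 1 rose, Serpina12, an adipokine also called vaspin, with a log2 fold change of 2.74 (SE 0.532, edgeR adjusted p = 0.000366) at 1.00 ± 0.892 and 6.95 ± 4.50 CPM. It was named after its values were seen, since it lies under the 10 CPM required of named genes. Serpina11 and Serpina7, which encodes thyroxine-binding globulin, had 160 and 168 CPM and 58.6 and 71.8 CPM in controls and PIA (0.07, SE 0.114, and 0.26, SE 0.182). The median of the 5 was 0.22, against -0.02 for all genes tested.

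Of 8 tested serpins of other clades that the liver secretes, 1 rose and 2 fell, with a median log2 fold change of -0.10. Among all genes 53.6% were called, and the difference from that share was not tested. Without TMM factors 1 rose and 6 fell, and without called doublets 1 of 7 rose and 4 fell. Serping1, the C1 inhibitor of complement and contact activation, went from 246 to 470.5 CPM (0.93, SE 0.226, edgeR adjusted p = 0.00231). Without PIA 2 and 3 it was at 0.40 and with voom at 0.65, still called in both. Serpinf2, the inhibitor of plasmin, fell from 608 to 441 CPM (-0.46, SE 0.0950, edgeR adjusted p = 0.000634), and Serpind1, heparin cofactor II, from 384 to 296 CPM (-0.37, SE 0.114, edgeR adjusted p = 0.0108). Within clusters 15, 18, 24 and 25 Serpind1 was at -0.52, -0.11, -0.77 and -0.37 and called in 15 alone. Serping1 was not called in 15 and 24, nor Serpinf2 in 18. Antithrombin (Serpinc1) was at 1470.0 and 1409 CPM (-0.06, SE 0.0940).

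Of 10 proteases and cofactors that members inhibit or bind, 7 were tested, 3 rose and 2 fell (median 0.20), and 1 of the 3 was Elane, whose call rested on 1 mouse. Among those averaging at least 10 CPM, Prtn3, the neutrophil proteinase 3, had the largest change, from 11.3 to 53.9 CPM (2.11, SE 0.418, edgeR adjusted p = 0.000438). It belongs to the neutrophil markers, whose summed level was 90.3 to 537 CPM in controls and 166 to 622 CPM in PIA, and their part in its change was not tested. Within clusters 15, 18, 24 and 25 Prtn3 was at 0.36, -0.04, 1.87 and 2.11, and not called in 15 and 18. Factor XI (F11), a target of Serpina10, went from 68.4 to 96.1 CPM (0.50, SE 0.0970, edgeR adjusted p = 0.000378), though it was at 0.11 and no longer called without TMM factors. F11 was not called within clusters 15, 24, 25 and 28. Protein Z (Proz), the cofactor of Serpina10, fell from 162 to 133 CPM (-0.28, SE 0.103, edgeR adjusted p = 0.0326). That call was lost in 6 of 25 other settings, among them without control 2 (-0.24), without PIA 1 (-0.26), without PIA 2 and 3 (-0.22) and with the replicate block (-0.28). Proz was not called within clusters 15, 18, 24, 25 and 28 either. Plasma kallikrein (Klkb1) fell from 171 to 103 CPM (-0.70, SE 0.152, edgeR adjusted p = 0.00093). Within clusters 15, 18, 24 and 25 it was at -0.46, -0.04, -0.93 and -0.51 and called in none. Elane, neutrophil elastase, the target of alpha-1-antitrypsin and likewise a neutrophil gene, was called at 2.64 ± 3.18 and 11.4 ± 20.9 CPM (2.22, SE 0.878, edgeR adjusted p = 0.0416). It averages under 10 CPM and is named after its values were seen. The call was lost in 12 of 22 other settings, among them without PIA 5, where the value was -0.12. Without TMM factors 1 of the 7 rose and 3 fell.

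Of 8 tested genes of the handling of glucocorticoids, the hormones that Serpina6 carries, 1 rose and none fell: Tat, tyrosine aminotransferase, from 152 ± 54.8 to 275 ± 61.2 CPM (0.85, SE 0.185, edgeR adjusted p = 0.00100). Tat was not called within clusters 15, 24 and 28. The glucocorticoid receptor Nr3c1 had 122 and 103 CPM (-0.24, SE 0.110, edgeR adjusted p = 0.0745), its target Tsc22d3 46.6 and 50.3 CPM (0.12, SE 0.146) and Hsd11b1, which regenerates active hormone, 204 and 198 CPM (-0.03, SE 0.110). Without TMM factors 1 of the list rose and 4 fell, and without called doublets 1 rose and 2 fell.

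Among 13 liver transcription factors and receptors of acute phase signalling, 1 rose and 6 fell (median -0.17), together about the share called among all genes. Cebpb, a factor of the acute phase response, went from 280 to 647 CPM (1.21, SE 0.204, edgeR adjusted p = 0.000107). Stat3, which carries the signal of IL-6, fell from 372 to 184 CPM (-1.02, SE 0.109, edgeR adjusted p = 1.24e-06), Onecut1 from 80.1 to 41.7 CPM (-0.95, SE 0.222, edgeR adjusted p = 0.00162) and the growth hormone receptor Ghr from 1104 to 654 CPM (-0.75, SE 0.163, edgeR adjusted p = 0.000929). Within clusters, Cebpb ran from 0.21 to 0.45, Stat3 from -0.37 to 0.02 and Ghr from -0.39 to 0.01 in clusters 15, 18, 24 and 25, and none of the 3 genes was called in any of the 4.

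Acute phase proteins, plasma proteins whose synthesis by hepatocytes changes in inflammation, were the list with the most calls in edgeR's test over all mice. They did not lead with voom or without PIA 2 and 3. Of 17, 16 were tested, and 12 rose and 0 fell in edgeR's test, with a median of 0.69. The largest were Orm1, from 9.80 ± 12.0 to 1198 ± 1762 CPM (7.08, SE 1.18, edgeR adjusted p = 9.13e-05), Saa2 (5.47, SE 1.38, edgeR adjusted p = 0.00299), Orm2 (4.97, SE 1.27, edgeR adjusted p = 0.0033) and Saa1, from 27.6 ± 9.01 to 835 ± 1603 CPM (4.92, SE 1.17, edgeR adjusted p = 0.00197). PIA 2 and 3 carried much of this: without them 5 of the list rose and 2 fell, with Orm1 at 3.96, Saa1 at 0.78, Saa2 at 0.25 and Orm2 at 0.61, the last 3 no longer called. With voom, which the study's methods name, 5 rose and 1 fell, and Saa1 (1.22), Saa2 (0.43) and Orm2 (1.95) were not called, nor was Saa2 with the replicate block (2.49). Serpina3k (3.58) and Serpina6 (-1.74) stayed near their values when the same 2 mice were left out. Within clusters 15, 18, 24 and 25, 6, 12, 3 and 8 of the list rose, and without TMM factors 7 rose and 3 fell. Among all genes, 182, 489, 200 and 274 were called higher within those 4 clusters.

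The genes whose levels followed Serpina3k and Serpina6 from mouse to mouse were read from the 12 mice after subtracting each group's mean, over 2794 genes with at least 50 CPM. The nearest to Serpina3k was Sult1a1, a phenol sulfotransferase (Pearson r = 0.960), ahead of Chp1 (0.874) and the ferritin heavy chain gene Fth1 (0.837). Their own log2 fold changes were 1.06, 0.47 and 1.61. The nearest to Serpina6 were Ptms (0.955), Sult2a5, a hydroxysteroid sulfotransferase (0.952), and Slc22a27, an organic anion carrier (0.916), with log2 fold changes of 0.46, -0.25 and -0.15. These are descriptions over 12 libraries whose genes share depth and cluster make-up.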

How the data were processed

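Liver cells of 6 control and 6 PIA mice were measured, 1 library per mouse. The authors aligned reads and counted UMIs with Cell Ranger 7.0.0 (file header), and the deposited values are raw counts per gene and cell barcode, without normalization. The submitters' notes name mm10. The sample labels and the methods give different versions of the kit, and all 12 libraries carry 1 batch label, so no split by batch was possible. No column of unknown sample was present.

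Barcodes under 500 or over 50000 UMIs, or above 50% mitochondrial UMIs, were removed. The rest were clustered with scanpy 1.11.5 and leidenalg 0.10.2 (2000 variable genes without the 10 members, 20 principal components, 20 neighbours, resolution 2, no integration of libraries) under Python 3.11.15 with numpy 2.4.6, scipy 1.17.1 and pandas 2.3.3. Clusters were named from fixed markers, with the ending -like. Those led by another class or shallow without a marker among 10 leading genes stayed unnamed. So did those with few markers raised or with the best class scoring close to the next (6 of 60 clusters in all, cluster 28 among them). Cluster 5, with 10075 cells and close scores for pre-B and B, was another, so its cells are in neither of these classes. The class names are rebuilt ones and may differ from those of the study. Doublets were scored per library against simulated doublets, the top cells up to the expected rate were called, and they were kept except in an alternative.

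UMIs were summed per mouse and class and compared in R 4.3.3 by the quasi-likelihood test of edgeR 4.0.16 with TMM factors. Genes averaging 5 or more UMIs a mouse entered, those of mitochondria and ribosomal proteins aside, in mice with at least 10 cells of the class. The study's methods used voom on such sums. The p-values measure the spread between these 12 mice, whose litters were not used here. The ratio to hepatocyte RNA took a pseudocount of 0.5 UMI on the member, pairs with at least 20 UMIs, and a call at adjusted p under 0.05 with a difference of at least 1. Correlations used log2(CPM + 1). Scripts were tested on simulated data.

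By rule, list genes were named where called in hepatocyte-like sums with at least 10 CPM, at most 4 per list by size of change. Serpina12, Elane and some genes that were not called are named outside this rule. The members and the lists were chosen with earlier results of these data known. Alternatives were DESeq2 1.42.0, voom (limma 3.58.1), no TMM, other filters on genes and cells, resolution 1, a replicate block, Y-linked expression as a covariate, clusters alone and mice left out. Loop sequences and coding identity were read with Biopython 1.88 from GENCODE vM21 coding sequences. Protein sequences were not analysed here.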

Additional observations from a re-analysis of the deposited data

How the results depend on the processing

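The hepatocyte-like comparison called 6406 genes, and 5236 to 7114 under 11 other settings (DESeq2 6059, voom 6639, doublets left out 5410, without PIA 2 and 3 6312), with 5880 to 6388 when each mouse was left out in turn. Requiring a mean of at least 50 UMIs, which leaves fewer genes to test, gave 4194 calls. Whether that alone lowered the count was not tested. The cells at or above the median hepatocyte share gave 1746, and clusters 15, 18, 24, 25 and 28 alone gave 312, 866, 331, 454 and 72. These use fewer cells, and whether more than that lowered the counts was not tested. The members' log2 fold changes stayed between 3.03 and 4.27 for Serpina3k and between -2.37 and -1.67 for Serpina6 in all settings. With Y-linked expression as a covariate they were 3.69 and -2.08. Serpina10, whose 0.13 was not called, ran from -0.28 to 0.31 and lay below 0 in 8 of 31 other settings. Among the members and named list genes called in the whole sums, those that changed sign did so within clusters, except Elane. They were Serpina1a (-0.09 in cluster 15, -0.07 in 25), Serpina1c (-0.29 in 15, -0.16 in 25, -0.05 in 28), Serpina3m (-0.06 in 28), and of the list genes Prtn3 (-0.04 in 18), F11 (-0.06 in 15), Proz (0.08 in 18), Stat3 (0.02 in 25) and Ghr (0.01 in 18). Elane ran from -0.12 to 3.09 when each mouse was left out, with -0.12 without PIA 5. The cause was not tested. Deviations of same-numbered mice correlated at 0.22, 0.18, 0.13, 0.42, 0.01 and -0.10, with the own number the best match in 2 of 6. These values cannot tell whether the numbers pair the mice. With the number as a replicate block 6220 genes were called.

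Of 5 calls of the ratio to hepatocyte RNA, 3 were left when at least 100 UMIs were required and 3 without PIA 2 and 3. None was left without called doublets (0, with cholangiocyte-like cells in 3 mice) or in control mice alone (0) and PIA mice alone (0), where 6 mice cannot pass after adjustment. Leaving out each mouse gave 3 to 5, with 3 without control 2. Serpina1c ran from 1.57 to 2.10 and Serpina10 from 2.08 to 2.95 over all settings. Serpina3n in stellate-like cells ran from 0.07 to 2.10 and passed in 4 settings: without control 1, at 10% mitochondrial UMIs, with a pseudocount of 1 and with Alb alone. The 5 calls stayed without clusters 41, 42, 44 and 50, a setting chosen after seeing the data. The cholangiocyte-like values of Serpina3n, Serpina3m and Serpina10 rest on 21 to 123 UMIs.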

Other observations

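Another group of cells with hepatocyte genes was left out of the hepatocyte-like class. Cluster 28 (2860 cells, led by Fabp1, Uox and Ttc36) had a median of 653 UMIs and held 0.724% of the control and 1.99% of the PIA cells. Serpina3k had a log2 fold change of 3.03 there and Serpina6 of -2.14, and Serpina1e was at 0.82. With these cells added to the hepatocyte-like class, Serpina3k was at 3.78 and Serpina6 at -2.13. The related genes Serpina3f and Serpina3g, counted at 6.15 ± 2.08 and 7.15 ± 1.29 CPM in hepatocyte-like cells of controls and 4.30 ± 3.91 and 9.93 ± 10.7 CPM in PIA, passed no test there (-0.58, SE 0.419, and 0.22, SE 0.413).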
